A study of Drosophila melanogaster with 36 samples.

Results

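Heads of Drosophila melanogaster females mated to males of monogamous populations were compared with heads of virgin females. The comparison used 12 of the 36 deposited samples, chosen by their labels as female head, either virgin or mated to M1, M2 or M3 males. These samples are 2 sequencing runs of each of 6 libraries, out of 18 libraries in the series. All females came from the IV base population. Mated females met their mates at 3 days of age. Virgin and mated females alike were frozen at 4 days, which is 24 h after mating for the mated groups, and each library pooled 20 heads dissected on ice. The M1, M2 and M3 males came from separate populations founded from the IV population at a census size of 200. In these populations mating was enforced between single random pairs for 182 generations, and 1 generation in a common environment followed. One mated library stands for 1 male population, so the spread among mated libraries covers male populations and pools together. Nothing in the labels says that the virgin pools came from separate cultures, nor at what time of day each pool was frozen. Heads of females mated to P1, P2 and P3 males, from populations kept in polygamous groups of 5 females and 5 males, entered the model and are given as a side-by-side value.

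Mating changes the physiology and behaviour of Drosophila females: egg production, feeding and food preference, sleep and receptivity shift under sperm and seminal fluid proteins, of which the sex peptide is the best known. The sex peptide is also known to stimulate juvenile hormone synthesis. A head holds the brain and eyes, but also a fat body that makes yolk proteins and circulating lipoproteins, cuticle, muscle, haemocytes and the front of the gut. The circadian clock runs in brain neurons, photoreceptors, glia and fat body. In that clock CLK and CYC activate per, tim, vri and Pdp1, whereas PER, TIM and VRI act as repressors, so the transcripts of Clk and of per, tim and vri peak at different times of day.

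The 6 libraries held 40396031 to 64761633 counts, and 10886 of 17552 genes passed the expression filter. Levels are counts-per-million (CPM) on scaled library sizes, without division by gene length, so levels are compared between libraries and not between genes. In these bulk samples fewer cells of a type and less RNA per cell cannot be told apart. The head label was checked with markers. The rhodopsin gene ninaE lay at 35000 to 42400 CPM in the 6 libraries, the neuronal gene nSyb at 1130 to 1360 CPM and the glial gene repo at 20.8 to 24.4 CPM. The fat body gene apolpp, which encodes the main lipophorin, lay at 7090 to 7900 CPM, whereas Fbp1 was at most 0.221 CPM. Other fat body genes varied more. Lsp2 was at 699 to 1170 CPM in virgin heads and at 45.2 to 780 CPM in mated heads. Yp1 was at 33500 to 39300 CPM in virgin heads and at 40400 to 50200 CPM in mated heads. Of other tissues, the eggshell gene Cp36 was at most 2.31 CPM, the spermathecal genes Send1 and Send2 at most 0.08 and 0.0654 CPM, and the seminal protein genes SP and Acp26Aa had no counts. None of the markers tested among photoreceptor, neuronal, glial, fat body and haemocyte genes passed the test between virgin and mated heads. The markers Fbp1, Send1, Send2 and the seminal protein genes did not pass the expression filter.

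The midgut separated the libraries in another way. The summed level of 32 midgut protease genes, the trypsins and Jonah proteases that digest food protein, was 9036, 15.2 and 20.4 CPM in virgin 1 to 3. In heads mated to M1, M2 and M3 males it was 7105, 14520 and 16.4 CPM. Thus 1 virgin and 2 mated libraries carried high midgut protease transcripts and the other 3 did not, and both groups spanned the same range. Not all midgut markers followed this split. The proteases betaTry and yip7 did, but Jon25Biii was at 0.894, 0.647 and 4.09 CPM in virgin 1, M1 and M2. The midgut gene lab was at 3.12 to 3.91 CPM in all 6 libraries, and Vha100-4 and Npc2d were at most 0.0872 and 0.0668 CPM. Of the 32 protease genes, 20 were tested and none passed the test in either direction, as did none of 25 tested members of a list of other midgut genes. The high libraries differed among themselves. The trypsin gene alphaTry was at 2840 CPM in virgin 1 and at 932 and 2279 CPM in the M1 and M2 libraries. The Jonah protease gene Jon25Bii was at 2.81 CPM in virgin 1 but at 92.5 and 156 CPM in the M1 and M2 libraries. The opposite held for the maltase gene Mal-A7, with 470 CPM in virgin 1 and at most 2.08 CPM in the mated libraries. With the midgut level as a covariate, 222 genes passed for that covariate, 221 of them rising with it. None of the 108 genes reported below was among them. This was close to fixed in advance, since those genes had separate groups and each group held high and low libraries. It therefore does not show that the 108 are free of midgut effects. Genes that were called only with the covariate were led by Mal-A7, CG43774, CG4363, Mal-A8 and CG43055, for which virgin 1 alone stood far above the other libraries.

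**Figure D1:**
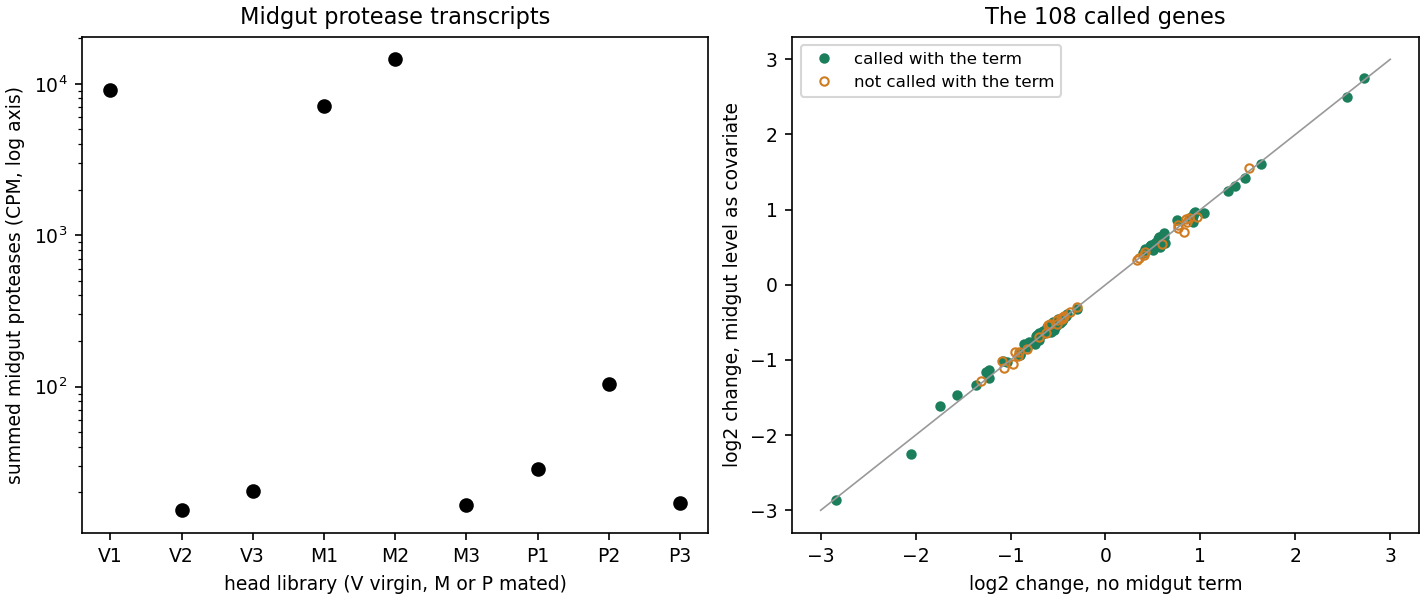
Left, summed level of the midgut protease genes in each head library (CPM, log axis), with V for virgin and M or P for the male population. Right, log2 change of each of the 108 genes called between M-mated and virgin heads, without (x axis) and with (y axis) the midgut level as a covariate, where filled points are called in both. Virgin 1, M1 and M2 stand at 7105 to 14520 CPM while the other libraries are at 103 CPM or lower, and the 108 changes lie close to the line of equality.

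Between heads mated to M males and virgin heads, 108 genes passed edgeR's quasi-likelihood test at a Benjamini-Hochberg adjusted p below 0.05, or 0.992% of the genes tested. Of these, 43 were higher in mated heads (0.395%) and 65 were lower (0.597%). Changes were modest in size. The median absolute log2 change of the called genes was 0.65, with 8 genes at least 2-fold higher and 13 at least 2-fold lower. The 3 mated and 3 virgin libraries did not overlap for any of the 108 genes, beside 15.4% of all tested genes without overlap (7.02% with the mated libraries higher and 8.34% with them lower). At an unadjusted p below 0.05 there were 1206 genes, or 11.1%. For the 43 higher genes the median log2 difference from the virgin mean was 0.73, 0.62 and 0.65 in the M1, M2 and M3 libraries, and for the 65 lower genes it was -0.70, -0.70 and -0.62. These medians are a description only, since the genes were called on these libraries. Among genes with a mean log2 CPM of at least 1, the largest rises were in Jhe, Cyp304a1, CG16743, CG18327, CG43448 and arg. The largest falls among them were in Obp99b, Lcp65Ag2, tim, CG18302, snsl and vri. The call for CG16743 was lost with the midgut covariate, and exons of CG18327 overlap CG8323 on the same strand.

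**Figure D2:**
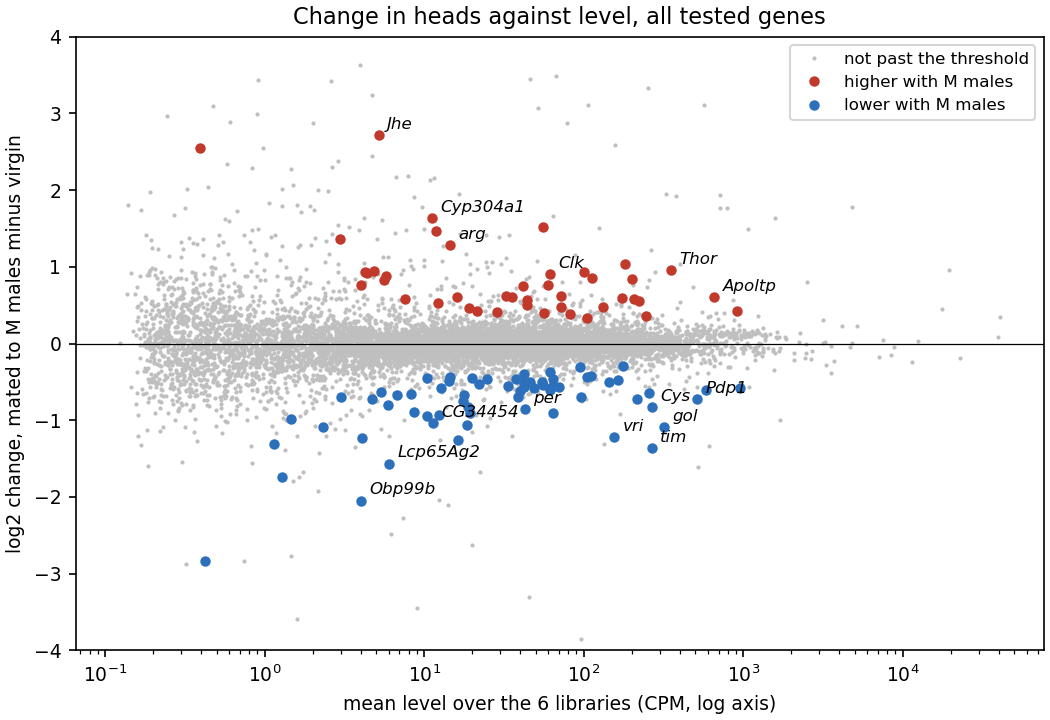
Log2 change between M-mated and virgin heads (y axis) against the mean level over the 6 libraries (x axis, CPM, log axis) for each tested gene, with 43 called genes higher (red) and 65 lower (blue). Called genes cover low and high levels alike, many uncalled genes have larger changes with larger spread, and 9 uncalled genes fall outside the plotted range.

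The number of genes called depended on single libraries, in the model as in the data. Leaving out virgin 1, virgin 2 or virgin 3 left 21, 75 or 30 genes. Leaving out M1, M2 or M3 left 16, 12 or 42 genes, and leaving out P1, which adds to the estimate of spread alone, left 34. With only the 6 compared libraries 50 genes were called, 44 of them among the 108. With the midgut level as a covariate 93 genes were called, of which 74 were among the 108. When virgin 1, M1 and M2 were left out, no gene was called by edgeR, with 704 genes at an unadjusted p below 0.05. There the median absolute log2 change of the 108 genes was 0.63, beside 0.69 between M1 and M2 and virgin 1. The genes were called on these same libraries and each of these comparisons has an arm of 1 library, so the medians are a description only. The calls for 7 genes held in all 9 omissions of 1 head library and with either midgut term: Jhe, arg, Clk and, among the lower genes, vri, CG34454, Cys and CG31313. Another 10 genes held in 7 or 8 omissions, 84 in 1 to 6, and 7 in none.

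**Figure D3:**
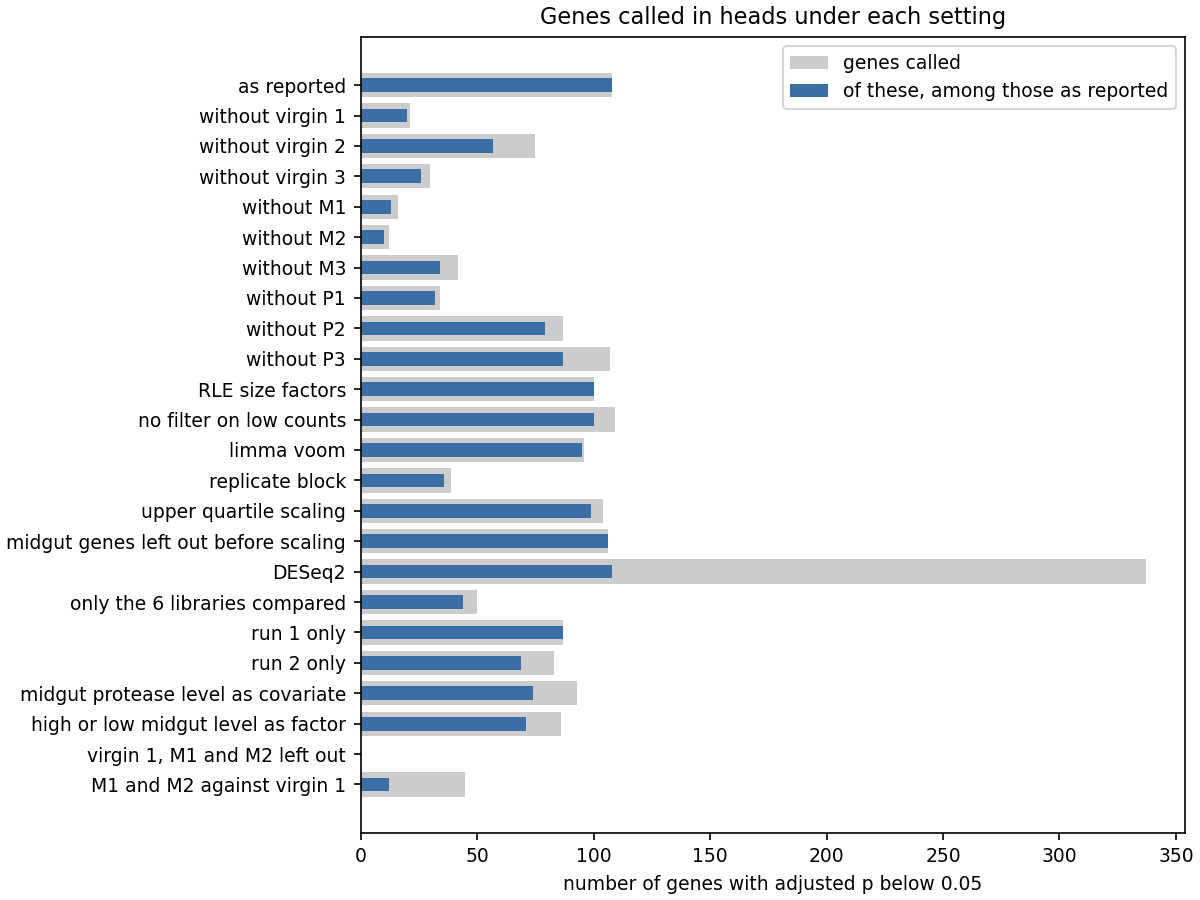
Number of genes with an adjusted p below 0.05 between M-mated and virgin heads (x axis) for the model as reported and for each other setting (y axis), with the genes shared with the 108 in blue. Leaving out 1 library left 12 to 107 genes, and DESeq2 called 337, all of the 108 among them.

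Of the genes of hormone signalling, Jhe rose. Jhe encodes juvenile hormone esterase, the enzyme that cleaves the methyl ester of juvenile hormone (BDGP6, 2R:16119793-16122773). Its level was 1.35, 1.38 and 1.37 CPM in virgin 1 to 3 and 7.87, 9.58 and 9.65 CPM in heads mated to M1, M2 and M3 males. Virgin levels were nearly identical and every mated library stood far above them. The change was 6.60-fold, a log2 change of 2.72 ± 0.18 (SE, n = 3 libraries per group; edgeR, adjusted p = 0.000351). It was 2.81 among the libraries low in midgut transcripts and 2.69 among the high ones, each with an arm of 1 library, and passed in neither (edgeR, adjusted p = 0.201 and 0.0815). Among 14 tested genes of juvenile hormone synthesis, breakdown and response, only Jhe passed (7.14%, beside 0.992% of all tested genes) and 13 did not. Jhedup, a neighbouring duplicate of the esterase, had a log2 change of -0.15 ± 0.43 (SE; edgeR, adjusted p = 0.969), with virgin levels from 44.5 to 164 CPM around mated levels of 87.4 to 111 CPM. Kr-h1, a transcription factor gene induced by juvenile hormone, had a log2 change of 0.39 ± 0.18 (SE; edgeR, adjusted p = 0.485), with overlapping groups. Hmgs, which acts early in the mevalonate route to the hormone, was at 55.6 to 66.5 CPM in virgin heads and at 72.7 to 77.7 CPM in mated heads, and did not pass (edgeR, adjusted p = 0.415). None of 17 tested ecdysone genes passed.

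Genes of the circadian clock changed in both directions, with 1 higher and 5 lower of 23 tested (26.1%, beside 0.992% of all tested genes). The higher gene was Clk, the activator of the clock (BDGP6, 3L:7763233-7775603). It stood at 39.8, 43.9 and 45.3 CPM in virgin 1 to 3 and at 88.8, 78.1 and 74.2 CPM with M1, M2 and M3 males. All mated libraries lay well above all virgin libraries, and the log2 change was 0.90 ± 0.09 (SE, n = 3; edgeR, adjusted p = 0.00215).

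The 5 lower genes were tim, vri, per, Pdp1 and Slob. Exons of per overlap dyw on the opposite strand. Exons of tim overlap lncRNA:CR46495 on the opposite strand and snoRNA:Or-CD16 on the same strand. The level of tim, whose product is degraded in light and pairs with PER, was 347, 420 and 382 CPM in virgin heads and 170, 138 and 139 CPM in mated heads. The repressor gene vri was at 195, 209 and 248 CPM in virgin heads and at 81.7, 88.9 and 108 CPM in mated heads. The repressor gene per was at 48.7, 54.2 and 62.2 CPM in virgin heads and at 28.0, 30.2 and 33.0 CPM in mated heads. In each of these 3 genes the lowest virgin library stood above the highest mated library. The log2 change was -1.36 ± 0.17 for tim, -1.22 ± 0.13 for vri and -0.85 ± 0.11 for per (SE, n = 3; edgeR, adjusted p = 0.0165, 0.00472 and 0.0113). Pdp1, an activator of Clk transcription, was at 583, 707 and 622 CPM in virgin heads and at 397, 368 and 394 CPM in mated heads. Its log2 change was -0.72 ± 0.10 (SE, n = 3; edgeR, adjusted p = 0.0149). Slob, which encodes a protein that binds the slowpoke potassium channel and cycles with the clock, fell by 0.60 ± 0.12 on the log2 scale (SE; edgeR, adjusted p = 0.0448). The call for vri held in all 9 omissions of 1 library. The call for tim was lost without virgin 3, M2 or M3 (edgeR, adjusted p = 0.0539, 0.0724 and 0.0596). The call for per was lost without M1 or M2 (edgeR, adjusted p = 0.0585 and 0.0543), and so was that for Pdp1 (0.0585 and 0.0724). The call for Slob was lost in 7 of 9 omissions and with the midgut covariate (edgeR, adjusted p = 0.052).

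Both groups included libraries high and low in midgut transcripts. Between M3 and virgins 2 and 3, all low in midgut transcripts, the log2 change was 0.74 for Clk, -1.53 for tim, -1.08 for vri and -0.82 for per. Between M1 and M2 and virgin 1, all high in them, it was 1.07, -1.17, -1.19 and -0.74 in the same order. Each of these comparisons has an arm of 1 library, assumed to vary like the others. None of the 4 genes passed among the low libraries (edgeR, adjusted p from 0.201 to 0.355), whereas Clk and vri passed among the high ones (adjusted p = 0.0262 and 0.0212).

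The rest of the clock list gave no calls. The CLK partner gene cyc was at 32.6 to 37.2 CPM in virgin heads and at 32.1 to 35.2 CPM in mated heads. The transcriptional repressor gene cwo had a log2 change of 0.22 ± 0.11 (SE; edgeR, adjusted p = 0.511). The blue-light receptor gene cry was higher in every mated library, at 141 to 151 CPM beside 98.7 to 128 CPM in virgin heads, but did not pass (edgeR, adjusted p = 0.165). The clock output gene to, linked to feeding, ranged from 54.4 to 154 CPM in virgin heads alone. In the fly's daily cycle the transcripts of Clk and cry are known to peak together, and those of per, tim, vri and Pdp1 in another part of the day. The labels give no time of freezing, so a difference in time of day between the pools and an effect of mating cannot be told apart.

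**Figure D4:**
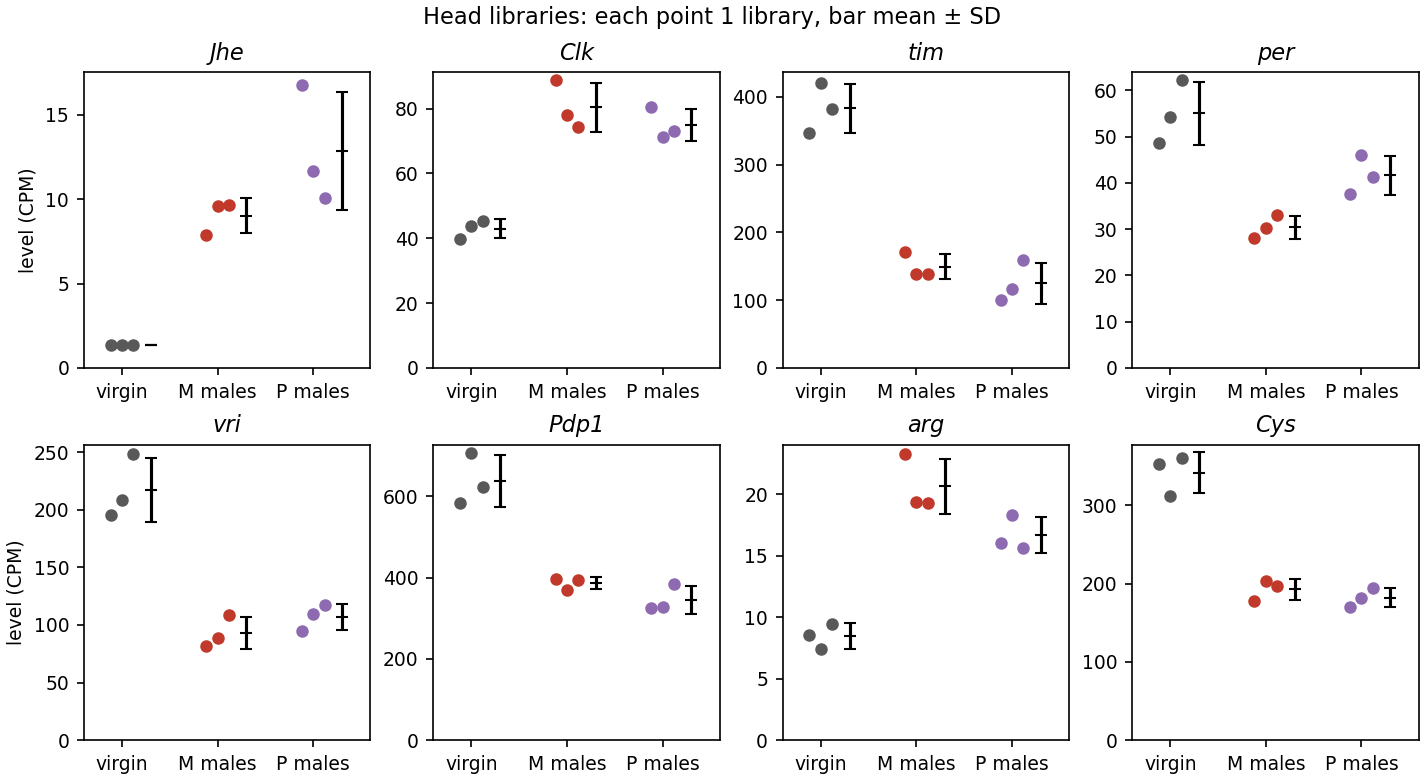
Level (y axis, CPM, from 0) of 8 genes in each head library of virgins, females mated to M males and females mated to P males, with 1 point per library and the mean ± SD beside it. For each gene the 3 virgin points lie apart from the 3 M points, with Jhe, Clk and arg higher and tim, per, vri, Pdp1 and Cys lower after mating.

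Of 27 tested genes of insulin and TOR signalling only Thor passed (3.70%, beside 0.992% of all tested genes), which encodes the translation repressor 4E-BP. The groups were separate for 9 of the 27, beside 15.4% of all tested genes, and 8 had an unadjusted p below 0.05, beside 11.1%. Its level was 234, 283 and 205 CPM in virgin heads and 497, 504 and 403 CPM in heads mated to M1, M2 and M3 males. The mated libraries stood above the virgin ones, with a log2 change of 0.96 ± 0.17 (SE, n = 3; edgeR, adjusted p = 0.042). The call held in 2 of 9 omissions and was lost with the midgut covariate (edgeR, adjusted p = 0.0993), under which the log2 change was 0.90. REPTOR, a transcription factor gene of the TOR pathway, and the growth regulator gene Myc had log2 changes of 0.34 and 0.51 and did not pass (edgeR, adjusted p = 0.0756 and 0.113). In the other direction, Sdr of this list had a log2 change of -0.32 with separate groups and did not pass (edgeR, adjusted p = 0.19). Of 28 tested genes of feeding and sugar handling, the receptor gene for adipokinetic hormone, AkhR, rose by 0.48 ± 0.09 on the log2 scale (SE; edgeR, adjusted p = 0.0429) and 27 did not pass. This 1 call is 3.57% of the list, beside 0.992% of all tested genes. The groups were separate for 4 of the 28, beside 15.4% of all tested genes. AkhR stood at 59.7, 61.2 and 59.9 CPM in virgin heads and at 72.4, 83.2 and 96.3 CPM with M1, M2 and M3 males, without overlap. Its call held in 1 of 9 omissions. The satiety gene fit, which the fat body of the head expresses in females, was at 118 to 179 CPM in virgin heads and 246 to 268 CPM in mated heads. It did not pass (log2 change 0.77 ± 0.16, SE; edgeR, adjusted p = 0.0767). In the other direction, CCHa2 of the feeding list had a log2 change of -0.48 with separate groups and did not pass (edgeR, adjusted p = 0.312).

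Lipid transport gave 1 call of 27 tested genes (3.7%, beside 0.992% of all tested genes). Apoltp, which encodes the lipid transfer particle that loads lipophorin, was at 504, 540 and 523 CPM in virgin heads and at 801, 768 and 813 CPM with M1, M2 and M3 males. The mated libraries were all above the virgin ones and close to each other, and the log2 change was 0.60 ± 0.08 (SE, n = 3; edgeR, adjusted p = 0.0178). The call was lost without virgin 1, virgin 3, M1 or M2, at an adjusted p of at most 0.0738 in edgeR. Of 13 tested genes of yolk and fat body proteins none passed, although the groups were separate for 7 of them, beside 15.4% of all tested genes. Yp2, a yolk protein gene, had a log2 change of 0.96 ± 0.20 (SE; edgeR, adjusted p = 0.0748), Yp3 of 0.45 ± 0.21 (adjusted p = 0.48) and Yp1 of 0.35 ± 0.13 (adjusted p = 0.355). For each of these 3 genes all mated libraries were above all virgin libraries. The transferrin gene Tsf1 was at 1884 to 2824 CPM in virgin heads and at 969 to 1324 CPM in mated heads, and did not pass (edgeR, adjusted p = 0.391).

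Arginine and proline metabolism included genes among those called. The gene arg encodes arginase, which splits arginine into ornithine and urea (BDGP6, X:509435-528028). It was at 8.55, 7.37 and 9.43 CPM in virgin heads and at 23.2, 19.4 and 19.3 CPM with M1, M2 and M3 males. No virgin library approached the mated ones, and the log2 change was 1.29 ± 0.11 (SE, n = 3; edgeR, adjusted p = 0.00215), held in all 9 omissions. Its exons overlap those of elav and CG4293 on the opposite strand, and elav, the abundant neuronal gene, had a log2 change of -0.16 (edgeR, adjusted p = 0.701). Odc2, an ornithine decarboxylase gene, rose by 0.88 ± 0.17 and P5cr-2, a pyrroline-5-carboxylate reductase gene, fell by 0.54 ± 0.11 on the log2 scale (SE; edgeR, adjusted p = 0.0429 and 0.0492). These calls held in 1 and 2 of 9 omissions. The call for Odc2 was lost with the midgut level as covariate or factor (edgeR, adjusted p = 0.0583 and 0.0643). The grouping of these 3 genes was made after their values were seen.

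Odorant binding proteins, small carriers of hydrophobic ligands, changed in both directions. Of 32 tested odorant binding protein genes 2 rose and 2 fell (12.5%, beside 0.992% of all tested genes). Obp99b fell the most, from 7.90, 7.13 and 4.54 CPM in virgin heads to 2.18, 1.42 and 1.13 CPM with M1, M2 and M3 males. The mated libraries all lay below the virgin ones, and the log2 change was -2.05 ± 0.29 (SE, n = 3; edgeR, adjusted p = 0.0193). Its call was lost without virgin 1 or M2 (edgeR, adjusted p = 0.058 and 0.0838). Obp56a fell by 0.95 ± 0.18, while Obp49a and Obp56h rose by 0.55 ± 0.09 and 0.61 ± 0.11 on the log2 scale (SE; edgeR, adjusted p = 0.0429, 0.0275 and 0.0291). These 3 calls held in 1, 3 and 3 of 9 omissions.

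Of 42 tested cuticle protein genes 1 rose and 4 fell (11.9%, beside 0.992% of all tested genes). The groups were separate for 19 of the 42, beside 15.4% of all tested genes. The cuticle protein gene Lcp65Ag2 was at 7.96, 11.3 and 7.87 CPM in virgin heads and at 2.16, 3.36 and 3.62 CPM in mated heads. The groups did not overlap, with a log2 change of -1.57 ± 0.25 (SE; edgeR, adjusted p = 0.0275), and the call held in 4 of 9 omissions. Its near-identical copy Lcp65Ag1 makes the counts of this gene uncertain. Cpr60D, Cpr47Ea and Cpr47Ee, genes of chitin-binding cuticle proteins, fell by 1.08, 0.63 and 0.46 on the log2 scale (edgeR, adjusted p = 0.0275, 0.0429 and 0.0395). These calls held in 3, 1 and 2 of 9 omissions, and those of Cpr47Ea and Cpr47Ee were lost with the midgut covariate (edgeR, adjusted p = 0.065 and 0.0695). TwdlT, of the Tweedle family, rose by 0.93 ± 0.14 (SE; edgeR, adjusted p = 0.0253) and held in 4 of 9 omissions. Outside the list, Vajk2 and Vajk4, of another family of cuticular proteins, fell by 0.93 and 0.58 (edgeR, adjusted p = 0.0279 and 0.0375). Their calls held in 3 and 2 of 9 omissions and were lost with the midgut covariate (edgeR, adjusted p = 0.055 and 0.0583). The gene snsl, whose exons overlap CG3036 on the opposite strand, fell by 1.23 ± 0.16 (SE; edgeR, adjusted p = 0.0122).

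The calls for Cys and CG31313, neighbours on the right arm of chromosome 3 with 1 annotated gene between them, held in every omission. Cys encodes a cystatin-like inhibitor of cysteine proteases (BDGP6, 3R:14569103-14569644). It was at 353, 312 and 361 CPM in virgin heads and at 178, 203 and 197 CPM with M1, M2 and M3 males. CG31313 lies 1.67 kb away and was at 263, 252 and 291 CPM in virgin heads and at 154, 173 and 159 CPM in mated heads. For both genes the mated libraries lay below all virgin libraries. The log2 change was -0.83 ± 0.08 for Cys and -0.73 ± 0.08 for CG31313 (SE, n = 3; edgeR, adjusted p = 0.00379 and 0.00395). Both have an exon overlapping a gene on the opposite strand, asRNA:CR44095 for Cys and CG14852 for CG31313. The short gene CG34454 (3L:231681-232350) fell from 14.9, 17.4 and 13.6 CPM to 7.22, 7.82 and 7.39 CPM, with a log2 change of -1.03 ± 0.10 (SE; edgeR, adjusted p = 0.00215). Within 10 kb of each other lay 4 pairs of called genes, of which 3 pairs changed in the same direction. These included CG14259 and Jhbp11, which fell by 0.57 and 0.58, and the noncoding RNA genes lncRNA:CR44380 and lncRNA:CR43417, which fell by 0.98 and 0.74 on the log2 scale (edgeR, adjusted p = 0.0498 and 0.0267). The calls for CG14259 and Jhbp11 held in 7 and 2 of 9 omissions and that for lncRNA:CR43417 in 3. The call for lncRNA:CR44380 held in 0 of 9 and was lost with the midgut level as covariate or factor (edgeR, adjusted p = 0.052 and 0.0515).

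Of 33 tested genes of phototransduction and visual pigment metabolism 3 fell and none rose (9.09%, beside 0.992% of all tested genes). They were ninaD and ninaB, whose products take up and cleave carotenoids for the visual pigment, and inaF-B, which encodes a small protein needed by the TRP channel. The log2 changes were -0.67 ± 0.11, -0.37 ± 0.07 and -0.62 ± 0.11 (SE; edgeR, adjusted p = 0.0279, 0.0429 and 0.0405). The calls held in 4, 2 and 1 of 9 omissions. The call for ninaB was lost with the midgut level as covariate or factor (edgeR, adjusted p = 0.0676 and 0.0809). That for ninaD was lost with the factor (edgeR, adjusted p = 0.05145). Exons of inaF-B overlap inaF-A, inaF-C and inaF-D on the same strand, so its counts are uncertain. Those of ninaB overlap Adgf-D and f-cup on the opposite strand. The groups were separate for 15 of the 33 genes, beside 15.4% of all tested genes, in part upward and in part downward. The opsin gene Rh5 was at 478 to 614 CPM in virgin heads and at 361 to 439 CPM in mated heads and did not pass (edgeR, adjusted p = 0.162).

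Of 75 tested cytochrome P450 and other detoxification genes 1 rose and 1 fell (2.67%, beside 0.992% of all tested genes). At an unadjusted p below 0.05 there were 18 of the 75, beside 11.1% of all. Mated heads were higher on average for 23 of the 75, and the median log2 change was -0.14, beside -0.01 over all tested genes. The cytochrome P450 gene Cyp304a1 was at 5.80, 5.63 and 4.85 CPM in virgin heads and at 16.9, 15.6 and 18.2 CPM with M1, M2 and M3 males, a log2 change of 1.64 ± 0.23 (SE; edgeR, adjusted p = 0.0267). The mated libraries stood well above the virgin ones, and the call held in 2 of 9 omissions. Cyp309a2 fell by 0.90 ± 0.11 (SE; edgeR, adjusted p = 0.0113) and held in 8 of 9 omissions. Its relative Cyp309a1 was at 40.5 to 57.3 CPM in virgin heads and at 16.7 to 29.4 CPM in mated heads and did not pass (edgeR, adjusted p = 0.0809).

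Several other called genes act in pigment and cuticle hardening or in transport. They were grouped after their values were seen. The peroxidase gene cd, of brown eye pigment synthesis, fell by 0.80 ± 0.13, yellow-e and yellow-c, of the yellow family, fell by 0.90 ± 0.15 and 0.60 ± 0.09, and the laccase gene stw fell by 0.40 ± 0.07 on the log2 scale (SE; edgeR, adjusted p = 0.0275, 0.0275, 0.025 and 0.0275). These calls held in 3, 3, 4 and 3 of 9 omissions. Exons of yellow-c overlap CIAPIN1 on the opposite strand. Of the ABC transporters of the G subfamily, CG17646 was at 66.8, 75.0 and 64.5 CPM in virgin heads and at 124, 122 and 147 CPM in mated heads, a log2 change of 0.93 ± 0.14, whereas CG9664 fell by 0.46 ± 0.08 (SE; edgeR, adjusted p = 0.025 and 0.0319). Both calls held in 3 of 9 omissions.

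Of 18 tested neuron marker genes none passed, and their median log2 change was -0.04. The genes that follow were grouped after their values were seen. The gene sand, which encodes a potassium leak channel linked to sleep, rose from 3.21, 3.74 and 3.00 CPM to 6.55, 5.87 and 6.71 CPM. Its log2 change was 0.94 ± 0.16 (SE; edgeR, adjusted p = 0.0293), and its exons overlap uno on the opposite strand. The neuronal ankyrin gene Ank2 and the neuroligin gene Nlg1 rose by 0.43 ± 0.07 and 0.42 ± 0.08, and the neprilysin-like peptidase gene Nepl18 fell by 0.91 ± 0.14 on the log2 scale (SE; edgeR, adjusted p = 0.0275, 0.0429 and 0.0253). Apart from these, the ubiquitin ligase gene gol was at 417, 479 and 408 CPM in virgin heads and at 149, 201 and 260 CPM with M1, M2 and M3 males. The groups did not overlap, although the mated libraries were widely spread (log2 change -1.09 ± 0.20, SE; edgeR, adjusted p = 0.0498). The calls for sand, Ank2, Nlg1, Nepl18 and gol held in 3, 2, 1, 4 and 1 of 9 omissions. The call for Nepl18 was lost with the midgut covariate. That for gol was lost with the midgut level as covariate or factor (edgeR, adjusted p = 0.0518 and 0.05145).

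No gene passed in several other lists. These were 12 tested antimicrobial peptide genes, 14 bomanin and daisho genes, 35 genes of immune recognition and signalling, 10 Turandot and JAK/STAT genes and 17 heat shock genes. None passed among 36 neuropeptide genes, 30 genes of amine signalling or 13 activity-regulated genes. With 0.992% of all tested genes called, few calls or none are to be expected in lists of these sizes. Of 90 chemoreceptor genes only the ionotropic receptor gene Ir62a rose, by 0.83 ± 0.16 on the log2 scale (SE; edgeR, adjusted p = 0.0448, held in 1 of 9 omissions). That is 1.11% of the list, close to the share over all tested genes. Antimicrobial peptides summed to 246, 266 and 740 CPM in virgin heads and to 504, 285 and 526 CPM in mated heads, so the spread within each group exceeded the difference. Of 14 tested genes of sex determination and its targets, Obp99b and sxe2 fell (14.3%, beside 0.992% of all tested genes). The fall of sxe2 was 0.51 ± 0.09 on the log2 scale (SE; edgeR, adjusted p = 0.0334). The call for sxe2 held in 2 of 9 omissions and was lost with the midgut level as covariate or factor (edgeR, adjusted p = 0.0517 and 0.0568). The sex determination gene dsx was at 33.9 to 43.2 CPM in virgin heads and at 50.2 to 57.9 CPM in mated heads and did not pass (edgeR, adjusted p = 0.167).

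Heads mated to P males differed from the same virgin heads in 150 genes (1.38%), and since both comparisons share the virgin libraries only their values are set side by side. Jhe was at 16.8, 11.7 and 10.1 CPM with P1, P2 and P3 males, a log2 change of 3.23 from virgin beside 2.72 with M males. The changes with P and M males were 0.80 and 0.90 for Clk, -1.61 and -1.36 for tim, -1.02 and -1.22 for vri and -0.40 and -0.85 for per. Between P and M mates themselves no gene passed in edgeR. An unadjusted p below 0.05 was found for 864 of all 10886 genes and for 14 of the 108. Of these, per had a log2 difference of 0.45 at an unadjusted p of 0.00174 and Jhe of 0.51 at 0.0127. The 108 genes were called on the same M libraries that this difference subtracts, so small p-values among them were partly built in. The smallest adjusted p over all genes was 0.614.

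In abdomens of the same matings, 4700 of 10350 genes (45.4%) were called between M-mated and virgin females, 24.4% higher and 21% lower. Of the 108 genes called in heads, 90 were tested in abdomens. Of 38 genes higher in mated heads, 29 were also higher in mated abdomens and 1 was lower. Of 52 genes lower in mated heads, 4 were lower and 15 were higher in mated abdomens. These abdominal directions depend on the scale. Muscle genes gave another scaling, chosen after the data were seen. With it, the median abdominal gene moved by -0.92, and of all 10350 tested genes 346 were called higher and 6900 lower. Of the 38 genes higher in heads, 12 were then higher and 9 lower in abdomens. Of the 52 genes lower in heads, 30 were lower and 3 higher.

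The effect of mating to M males differed between abdomen and head in a test over all 18 libraries for 51 of the 108 genes, beside 26.1% of all genes tested (14.9% with the abdominal effect higher and 11.1% with it lower). The 108 genes were called on the head change that this difference subtracts, so a larger share among them was partly built in. Whether heads and abdomens came from the same females is not in the labels, and libraries were treated as separate. The clock genes tim and vri had log2 changes of 0.48 and 0.60 in abdomens, and their tissue difference was 1.81 and 1.78 (edgeR, adjusted p = 0.000403 and 2.92e-05). On the muscle scale the abdominal changes were -0.46 and -0.38, and the tissue difference was 0.81 and 0.76 (edgeR, adjusted p = 0.00292 and 0.00178). The rise in Clk was 1.14 in abdomens and 0.90 in heads, a difference that did not pass (edgeR, adjusted p = 0.386). On the muscle scale the abdominal change of Clk was 0.18 and its difference of -0.80 passed (edgeR, adjusted p = 0.000487). That scale lowered differences in general, with a median of -0.948 over all genes and 6467 of 11631 genes passing as lower. Jhe rose by 1.66 ± 0.27 in abdomens (SE; edgeR, adjusted p = 0.00149), less than in heads by 1.11 ± 0.33 (adjusted p = 0.0247). On the muscle scale its abdominal change was 0.72.

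**Figure D5:**
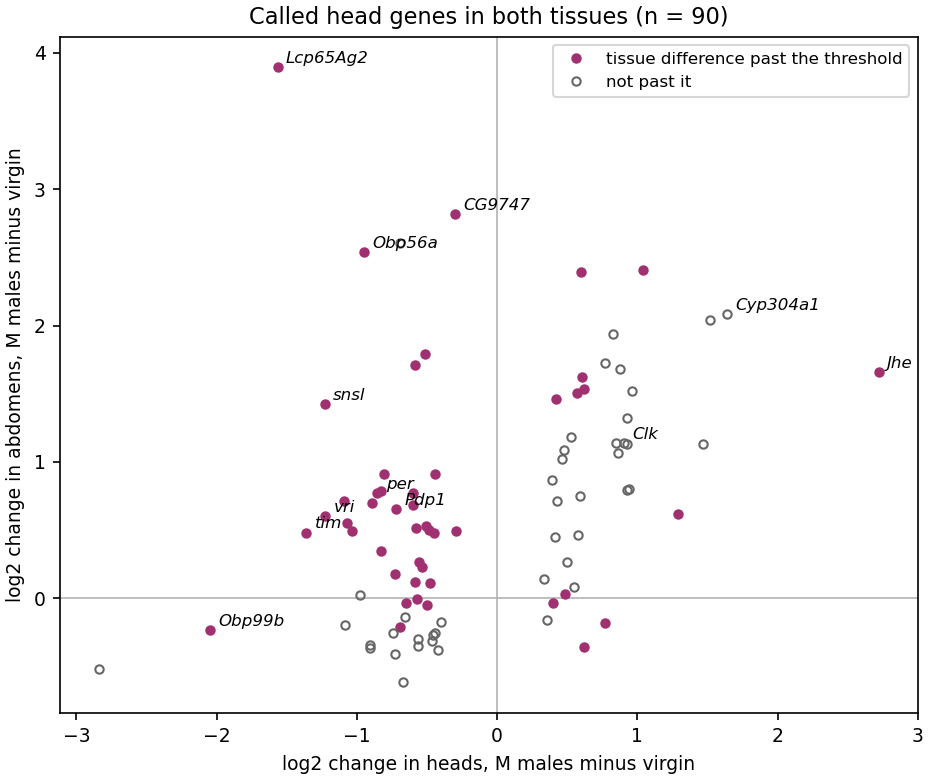
Log2 change between M-mated and virgin females in heads (x axis) and in abdomens (y axis, TMM scale) for the 90 called head genes that were tested in abdomens, with filled points where the tissue difference passed the test. Genes higher in heads mostly lie above 0 in abdomens too, whereas genes lower in heads, with Lcp65Ag2, CG9747 and Obp56a at the top, lie on both sides of 0, a placement that shifts down by about the median of -0.92 on the muscle scale.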

How the data were processed

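RNA was measured in female heads and abdomens. The authors deposited whole-number read counts per gene, without normalisation. Per the submitters' processing notes, Trimmomatic 0.33, TopHat2 2.1.0, HTSeq 0.6.1 and the BDGP6 build were used, and per the labels the kit kept the strand of the RNA. Which annotation and strand setting served the counting is not stated in the labels. Counts are therefore uncertain for 29 of the 108 called genes, which have an exon overlapping another gene. Symbols and coordinates came from Ensembl release 115, which held 17387 of 17552 gene identifiers.

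Both runs of a library agreed far better (chi-square per degree of freedom 1.81 to 2.52) than did libraries of a group (62.3 to 218). Runs were summed and n counts libraries. The test was the quasi-likelihood F test in edgeR 4.0.16 (R 4.3.3), with TMM scaling, filterByExpr, robust fitting and Benjamini-Hochberg adjustment over all tested genes. Each tissue had 1 model of 9 libraries in 3 groups with 6 residual degrees of freedom, so that P libraries share the estimate of spread. The common coefficient of variation in heads was 0.272. The standard error was taken as the log2 change over the root of F. The difference between tissues came from a model of all 18 libraries. The procedure was also run on simulated counts, drawn independently for each gene and library and with no midgut split. That run cannot show how the test behaves where deviations are shared across genes, as in these libraries. P-values describe spread between pools, which may in part be technical.

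Members and 35 gene lists were chosen with earlier results of these data known, and 17 of their 1362 symbols were not found. Genes to name were drawn by rules, and not every gene so drawn is described. The rules gave the top 12 in each direction with separate groups and mean log2 CPM of 1 or more. They also gave up to 4 members of each described list by smallest p, and fixed genes of clock, hormone and yolk. The rest were up to 6 genes each way that change call with the midgut covariate, and 5 each way by tissue difference. Other list members, neighbours and overlapping genes were named after their values were seen. Alternatives included other scalings, no expression filter, limma 3.58.1 voom, DESeq2 1.42.0, single runs, omission of each library, and midgut level as covariate or factor.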

Additional observations from a re-analysis of the deposited data

Results flagged for a closer look

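Genes called in heads whose response to mating with M males differed between tissues stood out by the test of that difference in edgeR, given as the abdominal minus the head log2 change. Since they were first called on the head change that is subtracted here, part of each difference may come from that selection. The difference was 2.26 for CG10175 (adjusted p = 2.02e-06), 3.08 for CG9747 (4.09e-06), 3.46 for Obp56a (6.13e-06), 1.33 for yellow-c (2.49e-05) and 2.61 for snsl (2.76e-05). Each of these was lower in mated heads and, on the TMM scale, higher in mated abdomens. In abdomens CG9747 went from 9.13 to 64.5 CPM and Obp56a from 4.95 to 28.8 CPM. On the muscle scale the difference was 1.28, 2.09, 2.46, 0.35 and 1.63 in the same order, and that of yellow-c did not pass (adjusted p = 0.138). The abdominal log2 change on that scale was -0.18 for yellow-c and 0.48 for snsl, and neither passed (edgeR, adjusted p = 0.418 and 0.104). In heads the call for CG9747 held in 0 of 9 omissions of 1 library and was lost with the midgut covariate (edgeR, adjusted p = 0.0903), and that for Obp56a held in 1 and was lost likewise (adjusted p = 0.0994).

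In the other direction the difference was -1.01 for CG3630 (adjusted p = 0.000548), -0.99 for Cdc7 (0.00126), -0.47 for CG3764 (0.00953), -1.11 for Jhe (0.0247) and -0.71 for arg (0.0279). On the muscle scale these were -2.02 for CG3630, -1.47 for CG3764, -2.08 for Jhe and -1.70 for arg, and all of these passed. That scale moved the median difference over all genes to -0.948, and 6467 of 11631 genes passed as lower. Passing in this direction on that scale therefore says little about these genes. The kinase gene Cdc7 rose in heads from 44.3 ± 4.2 to 75.5 ± 2.1 CPM and was at 240 and 211 CPM in virgin and mated abdomens (mean, SD, n = 3). In heads its call was lost with the midgut level as covariate or factor (edgeR, adjusted p = 0.087 and 0.09).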

How the results depend on the processing

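The count of 108 genes became 337 with DESeq2, 50 with only the 6 compared libraries, 45 for M1 and M2 against virgin 1 and 0 without virgin 1, M1 and M2. Leaving out 1 library gave 12 to 107. Same-numbered virgin and M libraries had deviations correlated at 0.477, -0.498 and 0.683. For virgin 1 the correlation was 0.739 with M2 and -0.829 with M3, so these values do not settle whether the numbers pair the samples. A replicate block gave 39 genes. Other settings gave 83 to 109. The P minus M count of 0 became 1 with the midgut covariate and 0 to 2 on leaving out 1 library. The abdominal count of 4700 ranged over 2987 to 5163 on leaving out 1 library (2987 without M3) and was 7246 on the muscle scale (346 higher, 6900 lower). The tissue difference of 3030 ranged over 1994 to 3360 (1994 without abdominal M3) and was 6667 on the muscle scale (200 higher, 6467 lower).

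None of the called head genes named changed sign under the settings run. The groups did not overlap for any called gene, so leaving out libraries could hardly reverse a direction, and this is no measure of robustness. Sign changed for these uncalled genes, in log2. On leaving out 1 library, Jheh2 ranged from -0.34 to 0.034, Jhedup from -0.52 to 0.28, Mal-A7 from -9.997 to 2.42, CG43774 from -3.40 to 2.31, CG4363 from -4.08 to 6.16, Mal-A8 from -6.64 to 4.85 and CG43055 from -3.23 to 7.75, each highest without virgin 1. Without virgin 1, M1 and M2, Jheh2 was at 0.13, Jon25Bii at -0.98, Jon25Biii at -0.20, Jhedup at 0.47 and Ilp6 at -0.11. Jon25Biii ranged from -0.12 without M2 to 2.71, and cyc from -0.090 to 0.0047 without virgin 3. With limma voom, Jhedup was at 0.036, CG4363 at 0.38 and CG43055 at 1.77. The cause was not tested. At depths from 40396031 counts upward, 2 called genes had a mean under 1 CPM.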
